A study of Homo sapiens with 64 samples.

Results

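The baseline transcriptome of NCI-H295R cells was described from the 6 control libraries of a series of 16 libraries on knockdown of NNT, a mitochondrial enzyme that produces NADPH. The other 10 libraries are from NNT Knockdown shRNA (4 libraries), siRNA-2 (3) and siRNA-3 (3), and serve here only to check labels and patterns. The members were chosen by their labels, Scrambled Control shRNA (3 libraries) and Scrambled Control siRNA (3 libraries), and made up 24 of the 64 deposited lane samples, with 4 lanes summed for each library. NCI-H295R is a human adrenocortical carcinoma line, and all 6 libraries carry the condition Control, with no RNA meant to be targeted by the scrambled sequence. The scrambled siRNA cells were harvested 72 h after transfection. For the shRNA cells, the labels name no vector, no time and no clone, and nothing on selection. Libraries are named by group and by the code in their title, such as 18-3, whose meaning is not given in the sources used here.

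The adrenal cortex makes steroid hormones from cholesterol. The steps run from delivery of cholesterol into mitochondria by STAR, through cleavage of its side chain by CYP11A1, to further enzymes of the mitochondria and the endoplasmic reticulum, and the nuclear receptor NR5A1 (steroidogenic factor 1) switches on many of these genes. NCI-H295R is widely used as a model because it makes glucocorticoids, mineralocorticoids and adrenal androgens, and it carries an activating change in CTNNB1, the gene of beta-catenin. IGF2, a fetal growth factor from an imprinted gene, is known for high expression in adrenocortical carcinoma.

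The 6 control libraries held 20148231 to 43992833 gene counts each, and 17567 to 18571 of the 26364 listed genes had a count in a library. NNT, the target of the knockdown, stood at 296 to 415 CPM (read counts scaled to an equal library total, after TMM scaling) in the 6 controls and at 28.7 to 233 CPM in the 10 knockdown libraries, so no library went against its label. The labels call the libraries triplicates without tying them to cultures, so the spread given below, and any p-value, is that between these libraries and may be technical. In such bulk RNA, fewer cells of a type and less RNA per cell cannot be told apart. CPM compare 1 gene across libraries. Levels of different genes are compared as length-adjusted levels (TPM, CPM per kilobase of exon rescaled to an equal total in each library), which were available for 22213 genes.

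A total of 12638 genes reached 1 CPM in all 6 control libraries, 2699 had a mean of at least 100 CPM and 50 of at least 1000 CPM. The 10 highest genes of a library took 2.58 to 2.81% of its counts and the 100 highest took 12.6 to 12.9%, so no single transcript dominated. In each library 1268 to 1306 genes together held 50% of the counts. Protein-coding genes held 98.7% of counts and long intergenic non-coding genes 0.297%.

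Among the 100 genes with the most counts, 13 were chaperones or served protein turnover, 10 were nuclear RNA or chromatin proteins, 8 belonged to the cytoskeleton, 7 were ribosomal proteins and 5 belonged to glycolysis, while 48 were in none of the classes. PKM (the last enzyme of glycolysis) at 3207 ± 413 CPM (SD, n = 6) and ACTB (beta-actin) at 3206 ± 165 CPM were level at the top. GAPDH, EEF1A1 (translation elongation) and TUBA1B (alpha-tubulin) followed at 2559 CPM or more. PKM was lower with the scrambled siRNA than with the scrambled shRNA (log2 difference -0.323, adjusted p = 0.019, edgeR quasi-likelihood test), and passed in 9 of 13 alternative settings. EPRS, an aminoacyl-tRNA synthetase, stood at 2520 ± 138 CPM. SCARB1, the receptor that takes up cholesteryl esters from high-density lipoprotein, was 7th-highest at 2456 ± 268 CPM. DLK1, an imprinted gene for a membrane protein of adrenal progenitor cells, was next at 2407 ± 301 CPM, then SPARC, a matrix protein, at 2372 ± 165 CPM and PEG10, an imprinted gene derived from a retrotransposon, at 2344 ± 113 CPM. PPIA, LDHB, TUBB, ACTG1, HSPD1, TFRC, TMBIM6, FLNA, RPL4 and PSAP completed the 20 highest, down to 1581 CPM.

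Per kilobase of exon the order changed, since short transcripts gain. RPL35, a ribosomal protein, was highest at 5902 ± 496 TPM (SD, n = 6), and ACTB, TUBA1B, LDHB and GAPDH followed with 4336 to 5300 TPM. PCP4, a small calmodulin regulator known as a marker of aldosterone-producing tissue, was 8th-highest at 3517 ± 406 TPM, between the ribosomal proteins RPL7A and RPLP1. MIF, a cytokine, reached 2817 TPM, but 55.1% of its exon length is shared with an antisense gene and its count may be split. Ribosomal proteins made up 26 of the 100 highest genes by length-adjusted level, chaperones and protein turnover 10, the cytoskeleton 7, nuclear RNA and chromatin proteins 6 and glycolysis 5. The antioxidant enzyme PRDX2 (2300 ± 109 TPM) and the spermine synthase SMS (2300 ± 103 TPM) were also among the 20 highest, as were the ribosomal proteins RPS27, RPSA and RPS16 and the ATP synthase subunit ATP5B (2231 ± 80.7 TPM, rank 20). SCARB1 ranked 27th of 22213 genes with 2023 ± 212 TPM and DLK1 42nd with 1621 ± 211 TPM.

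**Figure D1:**
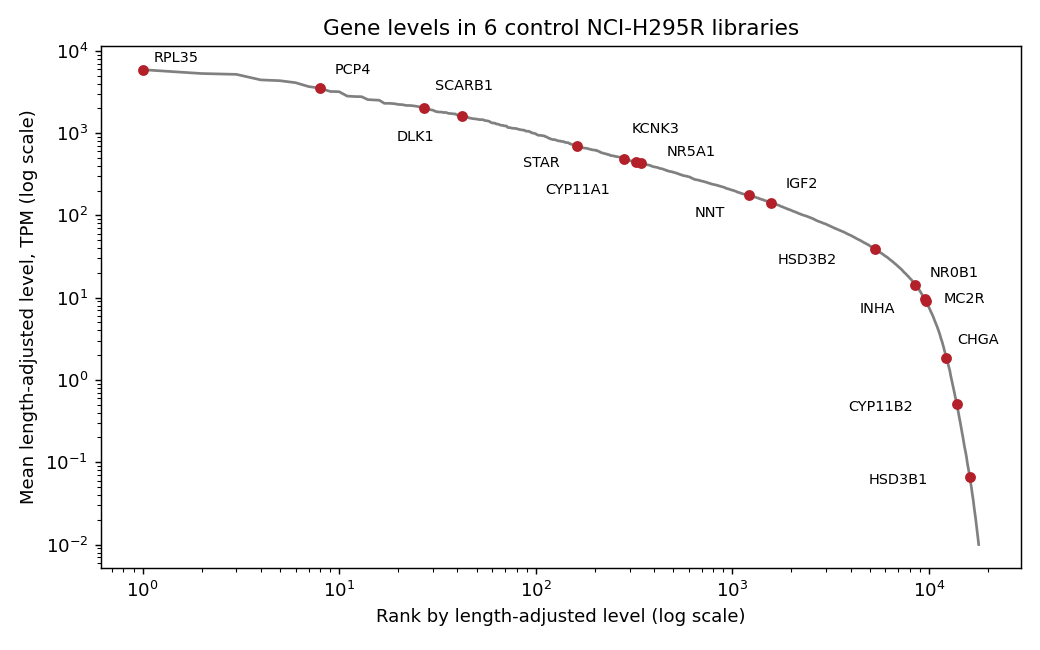
Mean length-adjusted level (TPM, log axis) against rank (log axis) over the 6 control libraries, as a grey line over all genes at 0.01 TPM or more, with named genes as red points. STAR, CYP11A1 and NR5A1 sit between ranks 162 and 343, whereas HSD3B1 lies at 0.0659 TPM near the end of the curve.

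The label was first checked against its adrenocortical markers, and all 4 were present in every library. NR5A1 (chromosome 9, 124481236 to 124507430, minus strand, GRCh38) stood at 399, 406 and 386 CPM in the scrambled shRNA libraries 18-3, 19-2 and 24-2. With the scrambled siRNA it stood at 382, 382 and 485 CPM in libraries 16-1, 23-5 and 30-11. Library 30-11 was the highest, and the groups overlapped. Its length-adjusted level of 431 ± 38.2 TPM (SD, n = 6) ranked 343rd, within the top 1.54% of genes, or 408th with the longest transcript as the length.

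Of the 14 adrenal transcription factors listed, 11 reached 1 CPM in all 6 libraries and 3 were not detected, meaning at most 3 counts in each library. By length-adjusted level, NR5A1 led, and its lowest library (406 TPM) was above the highest library of any other member (211 TPM, NR4A1). NR4A1 and NR4A3, nuclear receptors of the immediate-early response to hormones, reached 108.5 ± 53.7 and 84.1 ± 27.4 TPM, and NR2F2 reached 99.7 ± 12.3 TPM. NR0B1 (DAX1), a repressor of NR5A1 activity, was much lower at 14.5 ± 1.44 TPM, and GATA6 and GATA4 stood at 21.9 ± 3.55 and 11.2 ± 0.989 TPM. NR4A2 ranged from 1.69 to 12.2 CPM and was highest in the siRNA library 16-1, where NR4A1 (259 CPM against 81.0 to 145 CPM in the others) and NR4A3 (259 CPM against 115 to 171 CPM) were also highest. NR5A2 (the liver relative of NR5A1) and TCF21 (a factor of the fetal capsule) were at 0 in all 6 libraries, and WT1 had at most 1 count.

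Steroid synthesis genes were detected along most of the path to cortisol and androgens, and at or near 0 for CYP11B1 and CYP11B2, the final steps to cortisol and aldosterone. Of 12 listed genes, 9 reached 1 CPM in all 6 libraries and 7 had a mean of at least 100 CPM. Their median length-adjusted level was 178 TPM, against 30.4 TPM over all genes at 1 CPM in all 6 libraries.

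STAR (chromosome 8, 38143649 to 38151265, minus strand) measured 372, 445 and 312 CPM in shRNA libraries 18-3, 19-2 and 24-2. In siRNA libraries 16-1, 23-5 and 30-11 it measured 486, 348 and 515 CPM. The groups overlapped, and at 703 ± 131 TPM (SD, n = 6; rank 162) STAR was the highest of the 12. CYP11A1 (chromosome 15, 74337759 to 74367740, minus strand) measured 294, 277 and 307 CPM with the shRNA and 396, 320 and 381 CPM with the siRNA. All 3 siRNA libraries were above all 3 shRNA libraries, but the difference of 0.32 ± 0.12 (log2, SE) did not pass the threshold (adjusted p = 0.186, edgeR quasi-likelihood test). With 447 ± 65.5 TPM it ranked 322nd and overlapped STAR by little: its highest library reached 539 TPM and the lowest of STAR 533 TPM.

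The electron carriers were present too. FDX1 and FDXR, the ferredoxin and reductase that feed mitochondrial P450 enzymes, stood at 151 ± 28.1 and 254 ± 28.3 TPM. POR, the reductase for P450 enzymes of the endoplasmic reticulum, stood at 387 ± 32.7 TPM, and CYB5A, which favours the lyase reaction of CYP17A1, at 21.6 ± 1.56 TPM. CYP17A1, which opens the path to cortisol and androgens, was less even: 182, 374 and 188 CPM with the shRNA and 170, 130 and 224 CPM with the siRNA. Library 19-2 stood above the rest. CYP21A2 (steroid 21-hydroxylase) measured 107, 155 and 78.0 CPM with the shRNA and 139.9, 138 and 197 CPM with the siRNA, with overlap between groups. Its near-identical pseudogene CYP21A1P was listed at 0.296 CPM, and how reads shared by the pair were counted is not known.

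HSD3B2, the adrenal 3-beta-hydroxysteroid dehydrogenase that every active adrenal steroid passes, was the lowest of the path's enzymes that reached 1 CPM in all 6 libraries. It measured 13.9, 29.8 and 10.8 CPM in shRNA libraries 18-3, 19-2 and 24-2 and 25.8, 13.7 and 40.5 CPM in siRNA libraries 16-1, 23-5 and 30-11. Its mean of 38.7 ± 19.6 TPM ranked 5339th, and its highest library was 3.74 times its lowest. HSD3B1, the placental and skin form, had 7 counts in all over the 6 libraries and at most 3 in 1. CYP11B1 (11-beta-hydroxylase, the last step to cortisol) had 14 counts over the 6 libraries and none in siRNA libraries 16-1 and 23-5. CYP11B2 (aldosterone synthase) had 80 counts, from 0 in siRNA library 30-11 to 1.04 CPM in siRNA library 16-1. These pairs of genes are close copies of each other, so reads could be lost or assigned to the partner, and the levels of all 4 genes are uncertain. A count of 0 in a library allowed up to 0.0667 to 0.149 CPM (3 counts of a library's total, counting error only).

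The promoters of CYP11A1, CYP21A2 and HSD3B2 are shown because they are the path genes in the RefSeq table that hold the NR5A1 site, and that of HSD3B1 because it is the close relative of HSD3B2. The windows run from 250 bases before to 50 after the gene start, from RefSeq (GRCh38.p14), 5′ to 3′ on the gene's strand. Capitals mark an NR5A1 site written here as CAAGGNCA, where N is any base, searched on both strands. On the strand of the match, N was C in CYP11A1 and CYP21A2 and A in HSD3B2, so a stricter site could leave HSD3B2 out. CYP11A1 is shown as a side-chain cleavage gene at 329 CPM (chr15:74367597-74367896, minus strand), CYP21A2 at 136 CPM (chr6:32038165-32038464, plus strand), HSD3B2 at 22.4 CPM (chr1:119414681-119414980, plus strand) and HSD3B1 at no more than 3 counts in a library (chr1:119506953-119507252, plus strand).
CYP11A1: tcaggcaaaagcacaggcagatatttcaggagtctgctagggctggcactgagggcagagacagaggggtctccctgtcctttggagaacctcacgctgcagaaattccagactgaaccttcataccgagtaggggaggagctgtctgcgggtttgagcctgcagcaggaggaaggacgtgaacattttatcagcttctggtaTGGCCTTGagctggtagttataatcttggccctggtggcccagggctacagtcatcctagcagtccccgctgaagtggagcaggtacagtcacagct
CYP21A2: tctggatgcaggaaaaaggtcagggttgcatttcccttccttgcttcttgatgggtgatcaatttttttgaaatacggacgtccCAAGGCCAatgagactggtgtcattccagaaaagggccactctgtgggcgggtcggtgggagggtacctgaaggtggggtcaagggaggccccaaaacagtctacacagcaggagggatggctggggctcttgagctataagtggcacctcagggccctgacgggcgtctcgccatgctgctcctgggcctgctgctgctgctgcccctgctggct
HSD3B2: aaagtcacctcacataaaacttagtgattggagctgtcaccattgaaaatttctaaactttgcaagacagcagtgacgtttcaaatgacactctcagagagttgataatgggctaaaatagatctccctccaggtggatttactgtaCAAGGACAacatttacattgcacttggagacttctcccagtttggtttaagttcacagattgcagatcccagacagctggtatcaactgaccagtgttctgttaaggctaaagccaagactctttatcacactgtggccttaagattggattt
HSD3B1: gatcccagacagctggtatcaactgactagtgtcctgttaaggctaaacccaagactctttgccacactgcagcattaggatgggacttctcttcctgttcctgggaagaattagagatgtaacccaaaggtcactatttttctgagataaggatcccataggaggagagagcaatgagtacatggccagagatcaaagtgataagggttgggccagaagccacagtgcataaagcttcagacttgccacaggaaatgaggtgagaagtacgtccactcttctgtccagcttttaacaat

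The site began 47 bases before the gene start in CYP11A1, 166 before in CYP21A2 and 103 before in HSD3B2, and these letters were not in the HSD3B1 window. Among the 8 steroid synthesis promoters in the RefSeq table, 3 held the site, against 5.44% of all 27195 promoters. It was not in the windows of CYP17A1, FDX1, FDXR and CYB5A, which all reached 1 CPM in all 6 libraries. It was in 3.53% of the promoters of genes at 1 CPM in all 6 libraries and in 6.55% of those of genes not detected. The shorter half-site AGGTCA, also searched on both strands and able to overlap the longer site, occurred in 4 of the 8 (CYP17A1, CYP21A2, FDX1 and HSD3B1) and in 13.9% of all. The longer site was searched after the shorter one had been, and a match is a description of letters, not of binding.

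**Figure D2:**
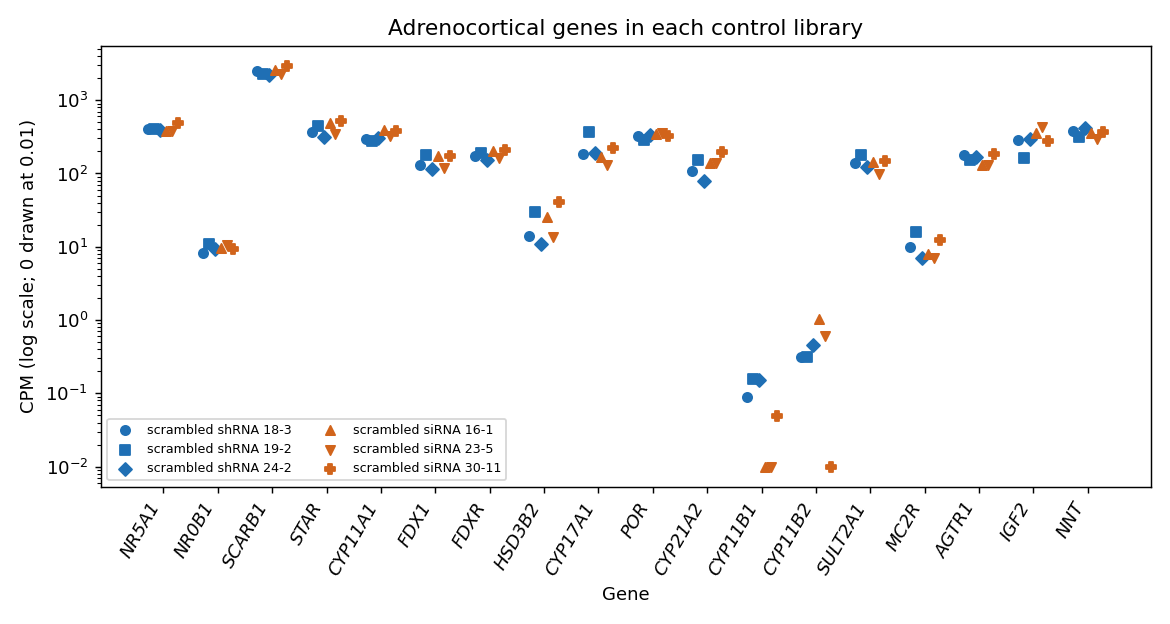
CPM (log axis, 0 drawn at 0.01) of 18 adrenocortical genes in each of the 6 control libraries, blue for scrambled shRNA and orange for scrambled siRNA, 1 point per library. HSD3B2 spreads from 10.8 to 40.5 CPM, NR5A1 only from 382 to 485 CPM, and CYP11B1 and CYP11B2 lie at or below 1.04 CPM.

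Of 17 enzymes and helpers that convert the products, 11 reached 1 CPM in all 6 libraries and 2 were not detected. SULT2A1, which sulfates DHEA, measured 140.4, 180.4 and 121 CPM with the shRNA and 144.5, 99.7 and 146.5 CPM with the siRNA, and ranked 849th at 229 ± 41.5 TPM (SD, n = 6). PAPSS1 and PAPSS2, which make its sulfate donor, stood at 56.8 and 35.2 TPM. AKR1C3, an androgen-forming reductase, stood at 67.1 ± 16.8 TPM and HSD17B4, a peroxisomal enzyme of the family, at 158 ± 9.75 TPM. CYP19A1 (aromatase) was detected in every library, from 16.0 to 43.4 CPM, at 17.3 ± 5.47 TPM. AKR1C4 was at 0 in all 6 libraries and HSD11B1, which regenerates cortisol, had at most 1 count.

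Genes of cholesterol supply held 0.854% of all counts, and 17 of 18 reached 1 CPM in all 6 libraries. Behind SCARB1, the synthesis enzymes HMGCS1 (1224 ± 249 TPM, SD, n = 6) and DHCR7 (518 ± 48.6 TPM) were high. SOAT1, which stores cholesterol as esters, stood at 213 ± 27.4 TPM. SCARB1 measured 2480 CPM in library 18-3, 2301 in 19-2 and 2185 in 24-2 with the shRNA. With the siRNA it measured 2557, 2285 and 2928 CPM, and the groups overlapped. TSPO, a protein of the outer mitochondrial membrane often used as a marker of steroid-making tissue, was the exception at 0.348 to 0.845 CPM and 1.73 ± 0.502 TPM. It had 8 to 38 counts in a control library, and whether its reads were lost in counting was not tested.

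Of the hormone receptors, that for angiotensin II was well above that for ACTH. AGTR1 measured 177, 153 and 167 CPM with the shRNA and 132, 130.4 and 184 CPM with the siRNA, or 164 ± 23.0 TPM (SD, n = 6). MC2R, the ACTH receptor, stood at 7.03 to 15.8 CPM and 9.01 ± 2.99 TPM, and its accessory protein MRAP at 7.30 ± 1.83 TPM, with 62.5% of MRAP exon length shared with another gene. The lowest library of AGTR1 (138 TPM) was far above the highest of MC2R (13.9 TPM). Downstream, GNAS (596 ± 34.4 TPM) and the protein kinase A subunits PRKAR1A (539 ± 19.6 TPM), PRKAR2B (411 ± 13.1 TPM) and PRKACA (259 ± 23.1 TPM) were abundant. KCNK3, a background potassium channel of the adrenal cortex, was 60th by counts: 974, 806 and 900.2 CPM with the shRNA and 841, 1015 and 1012 CPM with the siRNA. KCNJ5 (65.1 ± 8.33 TPM) and CACNA1D (47.4 ± 4.35 TPM), genes mutated in aldosterone-producing adenomas, were both detected, whereas KCNK9 stayed at 0.400 to 1.32 CPM. All 20 genes of the list had more than 3 counts in some library and 18 reached 1 CPM in all 6.

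All 7 receptors for steroids and vitamin D reached 1 CPM in every library, at low length-adjusted levels. VDR stood at 34.1 ± 2.49 TPM (SD, n = 6), PGR at 15.2 ± 2.46 and the glucocorticoid receptor NR3C1 at 13.5 ± 1.58 TPM. NR3C2, ESR2 and ESR1 lay between 2.35 and 5.36 TPM.

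Proteins used to recognise adrenocortical tumours under the microscope did not all have their transcripts here. INHA, the inhibin alpha chain, measured only 4.09, 3.06 and 3.80 CPM with the shRNA and 5.08, 4.91 and 4.78 CPM with the siRNA, or 9.62 ± 1.82 TPM (SD, n = 6). MLANA (melan-A) had at most 1 count, and CALB2 (calretinin) stood at 0.133 to 0.338 CPM. SYP (synaptophysin), a vesicle protein that such tumours often show, stood at 26.7 ± 3.02 TPM. DAB2, an endocytic adaptor of the outer cortex, was high at 761 ± 72.6 TPM (rank 147), and MGARP, a mitochondrial protein of steroid-making cells, reached 134.9 ± 19.0 TPM.

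IGF2 (chromosome 11, 2129112 to 2149603, minus strand) measured 290.1, 162 and 291 CPM in shRNA libraries 18-3, 19-2 and 24-2. In siRNA libraries 16-1, 23-5 and 30-11 it measured 356, 435 and 279.5 CPM. Library 19-2 was the lowest and 23-5 the highest, a range of 2.69 times, and the groups overlapped. Its level of 143 ± 44.5 TPM (SD, n = 6) ranked 1579th, with an SD of 717 ranks between libraries, and by counts it ranked 563rd. The readthrough row INS-IGF2 was at 0, and 7.92% of IGF2 exon length is shared with it or with an antisense gene.

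Its imprinted neighbours on 11p15 were far lower. H19, the non-coding gene beside IGF2, stood at 3.54 ± 1.57 TPM and CDKN1C, a growth inhibitor that is maternally expressed, at 1.09 ± 0.425 TPM. PHLDA2 had at most 3 counts in each library and INS had none. The receptors IGF1R (68.1 ± 17.0 TPM), IGF2R (74.9 ± 10.9 TPM) and INSR (31.3 ± 3.83 TPM) were all present. Among the binding proteins listed, IGFBP2 was the highest at 150.3 ± 21.4 TPM, and IGFBP4 had at most 3 counts in each library. IGF2BP3 and IGF2BP1, fetal RNA-binding proteins that bind IGF2 mRNA, stood at 63.4 ± 6.02 and 11.0 ± 3.31 TPM. Of 21 genes in the list, 12 reached 1 CPM in all 6 libraries and 4 were not detected.

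Of 22 Wnt pathway genes, 17 reached 1 CPM in all 6 libraries. CTNNB1 was 33rd by counts, with 1325, 1212 and 1396 CPM for the shRNA and 1172, 1180.0 and 1296 CPM for the siRNA, or 529 ± 39.3 TPM (SD, n = 6). AXIN2 (71.7 ± 8.43 TPM), LEF1 (73.1 ± 9.40 TPM), ZNRF3 (83.0 ± 9.33 TPM), RNF43 (41.6 ± 4.30 TPM) and NKD1 (11.2 ± 1.62 TPM), feedback genes and targets of the pathway, were detected in every library. CCND1, often listed as a target, stood at 0.445 to 0.825 CPM. The ligand WNT4 reached 93.0 ± 15.6 TPM, and the R-spondins RSPO1 and RSPO3 had 1 count and none.

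Among 13 genes altered in adrenocortical carcinoma, 12 had more than 3 counts in some library, and all 12 of these reached 1 CPM in every library. TERT, the telomerase subunit, had at most 1 count. CDK4 was the highest at 409 ± 11.9 TPM (SD, n = 6), although 51.9% of its exon length is shared with another gene, and CDKN2A stood at 105.0 ± 8.08 TPM and RB1 at 18.4 ± 0.878 TPM. A level says nothing on whether the protein is intact. All 10 proliferation markers were at 1 CPM or more in all 6 libraries, with a median of 361 TPM. PCNA led at 696 ± 56.0 TPM, and TOP2A, which is needed for chromosome segregation, stood at 813 to 952 CPM with the shRNA and 773 to 907 CPM with the siRNA.

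NNT itself (chromosome 5, 43602692 to 43707405, plus strand) measured 381, 317 and 415 CPM with the shRNA and 353, 296 and 362 CPM with the siRNA. Its level of 175 ± 21.8 TPM (SD, n = 6) ranked 1219th. Among other sources of NADPH, IDH1 (191 ± 21.0 TPM), PGD (184 ± 14.5 TPM) and ME1 (150.0 ± 17.2 TPM) overlapped its range, and the mitochondrial IDH2 (61.1 ± 10.4 TPM), ME2 and ME3 lay below. Transcripts of several antioxidant enzymes and carriers had higher levels than NNT: PRDX2 (rank 17), TXN (1514 ± 128 TPM), SOD1 (1053 ± 54.2 TPM), PRDX1 (776 ± 65.1 TPM), GPX4 (594 ± 41.6 TPM) and PRDX3, the mitochondrial peroxiredoxin (553 ± 41.5 TPM). SOD2 and catalase (CAT) were lower, at 18.04 ± 2.37 and 92.6 ± 9.44 TPM. GPX2 was at 0, and 32 of the 36 listed genes reached 1 CPM in all 6 libraries.

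Over the 12 lists together, 162 of 200 genes reached 1 CPM in all 6 libraries, 15 were not detected and 6 of those were at 0. Over all 26364 listed genes these counts were 12638, 9169 and 6086. The 12 lists include growth and antioxidant genes, so they are not matched in kind to lists of cell type markers. In the 7 lists of markers of other cells, 7 of 49 genes reached 1 CPM in all 6, 22 were not detected and 15 of those were at 0. Their summed level was 91.4 to 107 CPM in a library. Chromaffin markers held the largest part of it, 43.9 to 52.4 CPM, almost all from CHGB (14.8 to 27.4 CPM) and SYP (24.3 to 32.3 CPM), whereas the catecholamine enzymes TH and DBH had at most 1 count and PNMT, PHOX2A and SLC18A1 none. Endothelial markers summed to 0.174 to 0.456 CPM, with PECAM1, VWF and TIE1 at 0. Immune markers summed to 0.996 to 1.47 CPM, with CD3E and AIF1 at 0 and PTPRC at 1 count.

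Fibroblast markers summed to 19.1 to 22.9 CPM with the shRNA and 12.6 to 15.4 CPM with the siRNA, with COL1A1 at 9.55 to 13.3 CPM and COL1A2 at 0 to 0.190 CPM. COL3A1 measured 5.96, 12.5 and 5.89 CPM with the shRNA and 1.52, 0.706 and 1.74 CPM with the siRNA, and fell by 2.67 (log2; adjusted p = 0.00659, edgeR quasi-likelihood test). In the hepatocyte list AFP was the only gene at 1 CPM in all 6 (1.69 to 2.82 CPM), and TTR and FGB were at 0. In the gonadal list AMH, the anti-Mullerian hormone, stood at 11.3 to 17.4 CPM, while LHCGR, FSHR and FOXL2 were at 0. Epithelial keratins were low, with KRT8 at 0.684 to 1.18 CPM and KRT14 at 0, though EPCAM measured 8.40 to 14.5 CPM. The intermediate filament VIM was at 2555 ± 178 TPM (SD, n = 6), with 34.3% of its exon length shared with another gene.

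**Figure D3:**
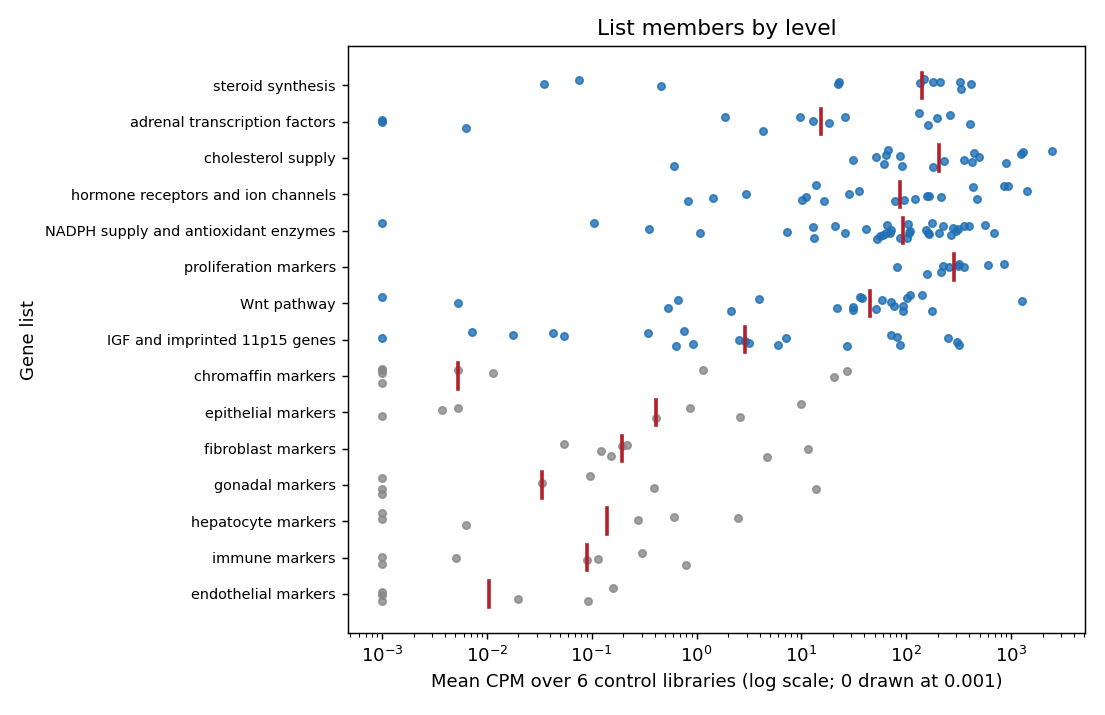
Mean CPM over the 6 control libraries (log axis, 0 drawn at 0.001) of each member of 15 gene lists, 1 point per gene and a red bar at the list's median. Adrenal, growth and antioxidant lists (blue) have medians from 2.91 to 284 CPM, and markers of other cells (grey) have medians of at most 0.414 CPM.

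A total of 6086 genes were at 0 in all 6 libraries and 8597 had under 3 counts in each. Of 19087 listed protein-coding genes, 2559 (13.4%) were at 0. A row at 0 is not always a silent gene. EIF4A1, a translation factor that every cell uses, was listed at 0, and 83.5% of its exon length is shared with the readthrough gene SENP3-EIF4A1. Of the 5302 rows at 0 with an annotation, 298 (5.62%) shared at least 50% of their exon length with another gene, against 1.23% of genes at 1 CPM in all 6 libraries.

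Libraries of a group differed by little for most genes. The median SD of log2 CPM within groups was 0.141 over the 15201 genes tested, and the biological coefficient of variation was 0.118 with all 16 libraries and 0.104 with the 6 controls alone. The spread fell with level: the median SD was 0.208 for genes at 1 to 10 CPM, 0.118 at 10 to 100, 0.0932 at 100 to 1000 and 0.0818 above 1000 CPM, where counting error alone would give 0.146, 0.0464, 0.0211 and 0.00746. The SDs were taken after 0.5 CPM was added, which lowers them at low levels, whereas the counting error had no such addition. The comparison is therefore least alike at 1 to 10 CPM. Pairs of libraries of 1 group had a median difference of 0.0947 to 0.160 in log2 CPM and pairs from different groups one of 0.130 to 0.197. Across 13197 genes, which are not independent replicates, Pearson's r of log2 CPM was 0.991 to 0.996 within groups and 0.986 to 0.993 between groups.

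The steadiest genes at 10 CPM or more were FANCC, ATG13, SYPL1, NRGN and ACTR2, with SDs of 0.0117 to 0.0147. ACTR2, of the actin-branching complex, measured 366, 370.1 and 367 CPM with the shRNA and 365, 374 and 367 CPM with the siRNA. TUBA1B was the steadiest of the 20 highest genes, at 2506 to 2598 CPM.

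Among genes at a mean of 10 CPM or more, the most variable was SREBF1, which encodes the sterol regulatory factor that drives fatty acid synthesis, with an SD of 0.92 (log2). It measured 68.6, 164 and 54.2 CPM in shRNA libraries 18-3, 19-2 and 24-2 and 70.6, 59.5 and 213 CPM in siRNA libraries 16-1, 23-5 and 30-11. Library 19-2 of 1 group and library 30-11 of the other stood apart from the rest. SCD, the stearoyl-CoA desaturase, was high in the same libraries: 1036, 1655 and 689 CPM with the shRNA and 959, 839 and 2348 CPM with the siRNA. NOV (CCN3, a secreted matrix protein) measured 523, 811 and 345 CPM and then 336, 173 and 679 CPM, again highest in 19-2 and 30-11, as was HSD3B2. The other genes of the 10 most variable were BMF, a cell death regulator, SIK1, a kinase induced by cyclic AMP, EGR1, an immediate-early factor, ABLIM1, AHNAK and ENPP2, with SDs of 0.65 to 0.76.

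Several steroid synthesis genes had the same libraries on top. Of the 9 members at 10 CPM or more, 6 (66.7%) were highest in 19-2 among shRNA libraries and in 30-11 among siRNA libraries, as were 9 of 17 cholesterol supply genes (52.9%) and 1561 of all 9769 genes (16.0%). The libraries were chosen after these values were seen, and the list's genes are transcribed in the same cells, so these counts are a description. The median within-group SD of the steroid synthesis list was 0.299 over its 10 tested members. Library 30-11 was also the shallowest, with 20148231 counts and the lowest share of reads outside genes (11.3%), and library 19-2 had 96.1% of 76 ribosomal protein genes at their highest in its group, so features other than these lists moved with the 2 libraries. Their part in the result was not tested. Without both libraries, CYP17A1 ranged from 130 to 188 CPM in place of 130 to 374 CPM, HSD3B2 from 10.8 to 25.8 CPM in place of 10.8 to 40.5 CPM, and STAR from 312 to 486 CPM in place of 312 to 515 CPM.

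SREBF1 was also highest in its group in the knockdown libraries coded 19-2 and 30-11: it measured 157 CPM in NNT shRNA library 19-2 against 53.1 to 83.9 CPM in the other 3, and 176 CPM in siRNA-3 library 30-11 against 42.5 and 63.5 CPM. It also reached 135 CPM in siRNA-2 library 11-1, a code that no control carries. HSD3B2 reached 80.3 CPM in siRNA-3 library 30-11 but 26.8 CPM in NNT shRNA library 19-2, below 31.3 CPM in library 24-2 of that group, and 62.9 CPM in siRNA-3 library 11-1. What a shared code stands for is not given.

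**Figure D4:**
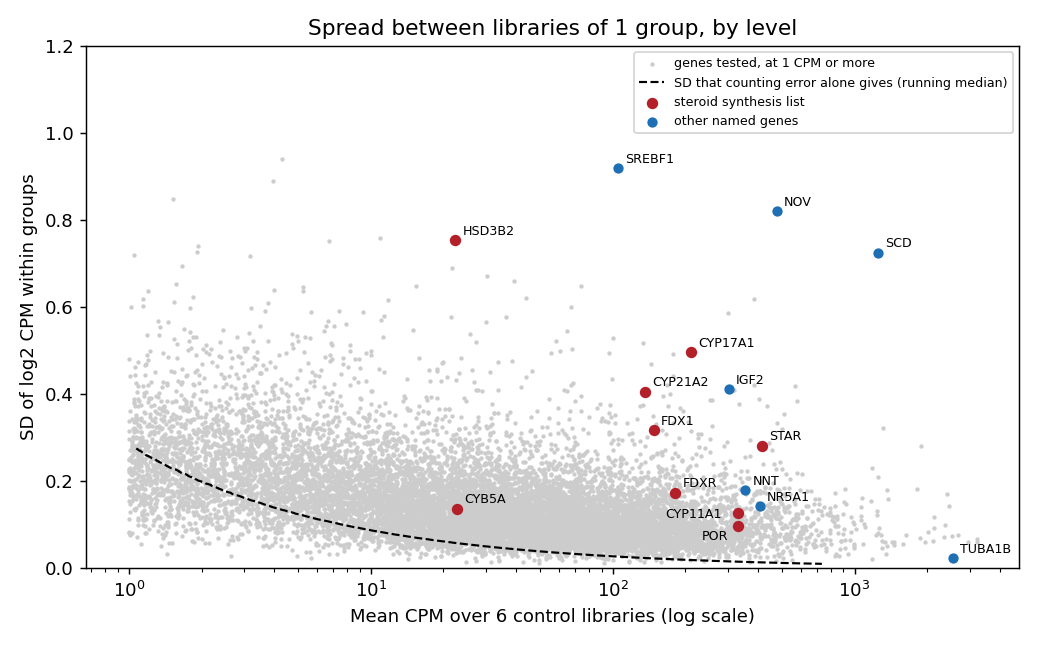
SD of log2 CPM within groups against mean CPM (log axis) for each tested gene at 1 CPM or more (grey), with steroid synthesis genes in red, other named genes in blue, and the SD from counting error alone as a dashed line. The SDs of genes were taken after 0.5 CPM was added, the dashed line without it. HSD3B2 (0.75), SREBF1 (0.92), NOV (0.82) and SCD (0.73) lie above most genes of their level, and TUBA1B (0.023) below.

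Between the 2 kinds of control, 264 of 15201 genes (1.74%) passed the threshold (adjusted p of 0.05, quasi-likelihood test of edgeR), 104 (0.684%) higher and 160 (1.05%) lower with the scrambled siRNA. The groups share no title code, so a difference by kind of control cannot be told apart from one by code. Without siRNA library 23-5 the count was 32 and without siRNA library 30-11 it was 456, and without shRNA library 18-3, 19-2 or 24-2 or siRNA library 16-1 it was 81, 60, 64 or 59. Of the 12 lists' 181 tested genes, 7 passed, all lower with the siRNA: KCNK2, IGF1, IGFBP5, LGR5, NOTUM, DAXX and GPX1. With 1 library left out, 0 to 11 of them or other list members passed. Each of the 7 passed in at most 2 of these 6 fits, and LGR5 in 0. No gene of the steroid synthesis, transcription factor or cholesterol supply lists passed, and NR5A1, STAR, CYP11A1, IGF2 and NNT had adjusted p of 0.186 to 0.879 in that test. Outside these lists, FN1, which encodes the matrix protein fibronectin, measured 19.9, 22.2 and 27.1 CPM with the shRNA and 3.95, 7.89 and 6.23 CPM with the siRNA (adjusted p = 0.000688, edgeR). ACTA2 (smooth muscle actin, 38.3% of its exon length shared with another gene) fell by 1.41 ± 0.18 with the siRNA (log2, SE; adjusted p = 0.000688, edgeR). Both passed in all 13 alternatives tried, and COL3A1 in 12. The summed fibroblast markers were also lower with the siRNA, but this sum includes COL3A1, the only 1 of 4 tested members of that list that passed. The part of fibroblast markers in the result was not tested. CHGB, a granule protein of neuroendocrine cells, fell by 0.70 ± 0.099 (log2, SE; adjusted p = 0.00134, edgeR) and passed in 12. The metallothionein MT1E was higher, at 37.4 to 66.8 CPM against 90.2 to 189.9 CPM, and passed in 9 of 13. Of the other genes with the largest differences at an average log2 CPM of 3 or more, VCAN and RGS5 fell by 1.80 and 1.64 (log2) with the siRNA and passed in 10 of 13. AGPAT9, SLC46A3, TUBA4A and MT1F rose by 0.88 to 0.95 (log2), and passed in 8, 13, 8 and 7 of 13 (adjusted p of 0.00506 to 0.0383, edgeR).

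The largest difference between the controls was in MIR30A, a microRNA gene on chromosome 6 (adjusted p = 5.9e-14, edgeR quasi-likelihood test). It measured 106, 86.4 and 103 CPM in the 3 scrambled shRNA libraries, and 0, 0 and 0.0996 CPM (2 counts) in the 3 scrambled siRNA libraries. It was also at 114 to 156 CPM in the 4 NNT shRNA libraries, each above all 3 scrambled shRNA libraries, and at most 0.0510 CPM in the 6 NNT siRNA libraries. High levels thus occurred only in shRNA libraries, with the scrambled and with the NNT sequence, and were higher with the latter. The vector is not given in the sources used here, and the source of the reads was not tested. The RefSeq hairpin (GRCh38.p14, chr6:71403551-71403621, minus strand) and its mature arms are shown because this gene differed most between the controls, with the seed (bases 2 to 8) of each arm in capitals.
MIR30A hairpin: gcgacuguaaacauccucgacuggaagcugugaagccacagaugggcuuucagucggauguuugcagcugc
hsa-miR-30a-5p: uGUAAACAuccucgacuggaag
hsa-miR-30a-3p: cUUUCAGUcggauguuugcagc

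**Figure D5:**
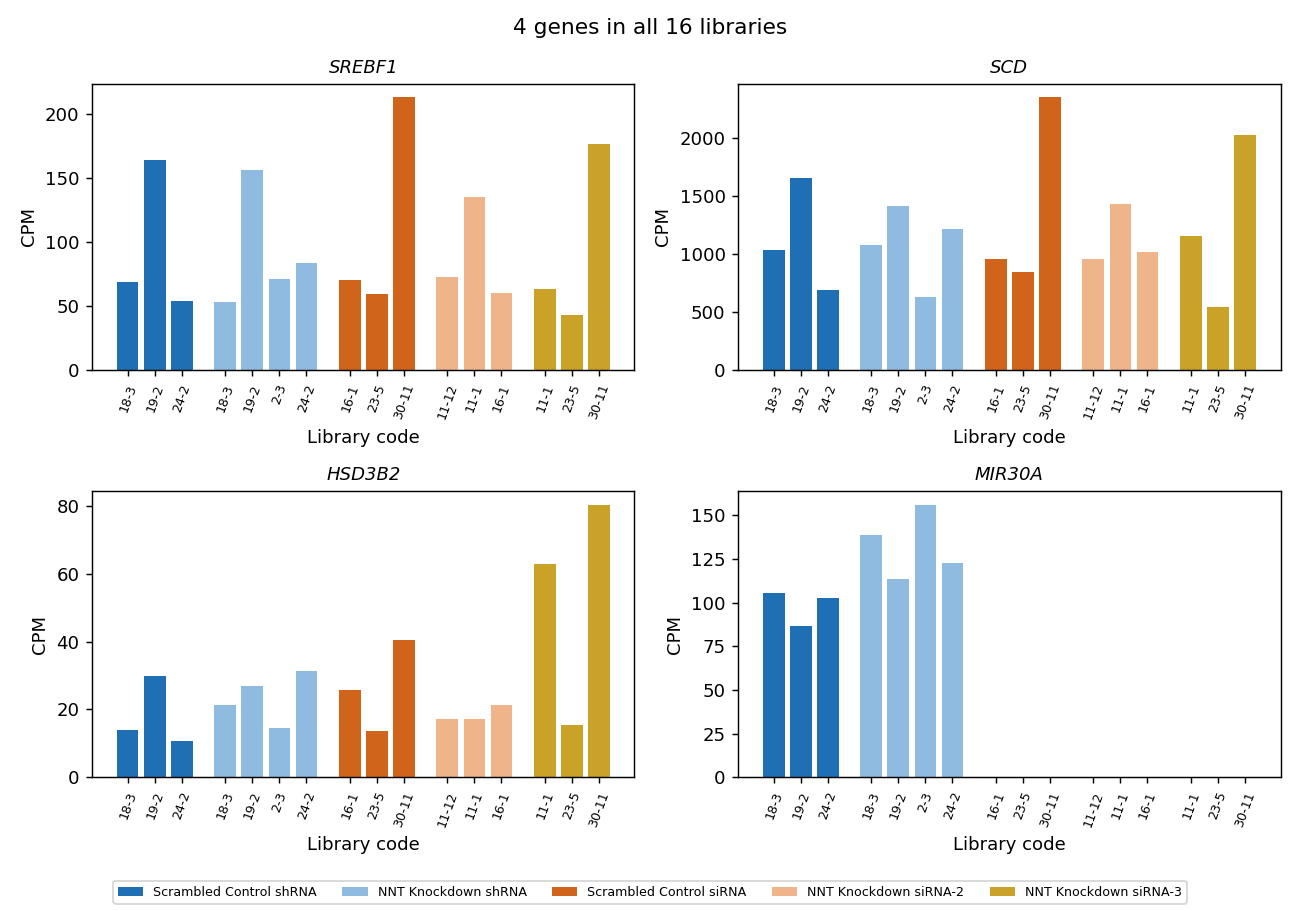
CPM of SREBF1, SCD, HSD3B2 and MIR30A in each of the 16 libraries, 1 bar per library from 0, coloured by group and labelled by title code. SREBF1 is highest in scrambled siRNA 30-11 (213 CPM), and MIR30A is at 86.4 CPM or more in all 7 shRNA libraries and at or near 0 in the 9 siRNA libraries.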

How the data were processed

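RNA of NCI-H295R cells was isolated with RNeasy columns and made into stranded mRNA libraries, per the labels' protocols. The values used are the gene read counts the authors deposited for each lane, and the submitters' processing notes name STAR 2.4.2a, HTSeq 0.6.1p1, DESeq2 1.14.1 and the build hg19. Neither the gene annotation nor the strand setting of the counting is named there, and genes that overlap or lie antisense may share or lose reads. Rows that name no gene were left out: in the control libraries 11.3 to 15.2% of reads fell outside genes, 1.05 to 1.19% hit more than 1 gene and 7.47 to 8.17% had several alignments.

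The 4 lanes of a library were summed. CPM used TMM-scaled totals (edgeR 4.0.16, R 4.3.3). Length-adjusted levels divided counts by the union of exons of GENCODE 29 (GRCh38, genes of 200 bases or more) and rescaled to an equal total per library. Of 26364 listed genes, 23774 matched by symbol and 715 by an older symbol, and the 1875 unmatched held 0.386% of counts. Gene coordinates are those of GENCODE 29. Genes were called not detected at 3 counts or fewer in each library.

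The 2 control groups were compared in a quasi-likelihood fit over all 16 libraries with a term per group, after edgeR's filter on low counts, with Benjamini-Hochberg adjustment over 15201 genes and a threshold of 0.05. The fit had no term for the title code, so libraries of different groups that share a code were treated as independent. Depth was 20148231 to 43992833 counts, and intervals and floors cover counting error only. The alternatives were DESeq2 1.42.0 as tool or for scaling, no scaling factor, other filters on low counts, a single lane, control libraries alone, another gene length and leaving out each library.

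The members and gene lists were chosen with earlier results of these data known. Names were drawn from the 4 markers and NNT, the 20 highest genes on either scale, list members, the 10 most and 5 least variable genes at a mean of 10 CPM or more and the 5 largest called differences in each direction at an average log2 CPM of 3 or more, while gene families, matched codes and genes with high overlap were added after levels had been seen. Some list members are not reported here by name.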

Additional observations from a re-analysis of the deposited data

Results flagged for a closer look

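In 3 of 36 genes examined library by library, 1 library lay far from the other 5 (its gap to the nearest library, over the whole range, passed Dixon's 95% critical value). Chance alone gives about 1 in 20 for genes not chosen by their spread, a rate that does not apply here because some of the 36, SIK1 among them, were examined for their spread between libraries. NR5A1 stood at 485 CPM in scrambled siRNA library 30-11 and at 382 to 405.6 CPM in the others. SIK1, a kinase induced by cyclic AMP, stood at 49.7 CPM in scrambled siRNA library 16-1 and at 13.8 to 18.4 CPM in the others. PDK4, an inhibitor of the mitochondrial pyruvate dehydrogenase, stood at 1689 CPM in the same library 16-1 and at 1224 to 1367 CPM in the others. The 36 were a chosen set: NR4A1, which was also highest in library 16-1, was not among them.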

How the results depend on the processing

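Over the main results, 81 of 91 alternative values stayed within the main value's spread or within 1.5 times the main count and 10 did not. The 81 overstate stability, since leaving out 1 library cannot move a mean by as much as the SD between libraries. All 10 belonged to the count of genes that differed between the controls or to the median SD within groups. The count of 264 genes that differed between the controls became 118 with lane 1 only and 658 with DESeq2, and 32 to 456 with 1 library left out. The cause of these moves was not tested. The other settings gave 237 to 323. The median SD of log2 CPM within groups (0.141) was 0.1714 with lane 1 only and 0.1185 with a filter of 5 CPM in 3 libraries, and 0.1277 to 0.1428 with 1 library left out. Without 1 library, mean CPM was 390.9 to 411.5 for NR5A1, 392.5 to 433.2 for STAR, 315.8 to 339.6 for CYP11A1, 275.7 to 330.4 for IGF2 and 341.9 to 365.6 for NNT. The number of genes at 1 CPM in all libraries used was 12651 to 12700, and 8626 to 8863 genes had under 3 counts in each, or 10478 with lane 1 only. No paired analysis was possible because the 2 control groups share no library code. Depth limits the undetected genes: 3 counts stand for 0.0667 to 0.149 CPM.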

Other observations

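Whole gene families, chosen after levels had been seen, placed the adrenal genes among their relatives by length-adjusted level. Of 48 nuclear receptors, 36 reached 1 CPM in all 6 control libraries and 4 were not detected. NR5A1 was the highest in every library (406 to 507 TPM), followed by the circadian repressor NR1D2 (226 to 384 TPM) and by RXRA (115.5 TPM). Of 56 cytochrome P450 genes, 20 reached 1 CPM in all 6 and 23 were not detected. The 4 highest were CYP11A1 (447 TPM), CYP17A1 (369.5 TPM), the sterol demethylase CYP51A1 (319 TPM) and CYP21A2 (204 TPM), and the next, CYP20A1, stood at 34.0 TPM. KCNK3 (489 TPM) led 15 two-pore potassium channels, ahead of KCNK1 (74.8 TPM). MC1R, the melanocyte receptor for the same hormone family, stood at 10.9 TPM beside MC2R at 9.01 TPM, with overlapping libraries.

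Among 12 metallothioneins, which bind zinc and copper and are close copies of each other, 5 reached 1 CPM in all 6 libraries, led by MT2A (1928 TPM) and MT1X (412 TPM), and 7 were not detected. The non-coding gene with the most counts was MEG3, from the imprinted region that also holds DLK1, at 386 to 658 CPM, followed by LINC00657 (496 CPM) and TUG1 (412 CPM). MALAT1 and NEAT1, nuclear non-coding RNAs, stood at 317 and 146.9 CPM.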
